A study of Mus musculus with 6 samples.

Results

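The genes described here are 10 members of the TGF-beta and activin system, out of 33965 genes in the deposited table. They were chosen by gene name, with no threshold on their values. They comprise the TGF-beta ligands (Tgfb1, Tgfb2, Tgfb3), their receptors (Tgfbr1, Tgfbr2, Tgfbr3), a pair of latent TGF-beta binding proteins (Ltbp1, Ltbp2), the activin A subunit gene Inhba and the BMP antagonist gene Grem1. Each name matched 1 row of the table. RNA-seq was performed on MC38 tumors, grown from a mouse colon carcinoma line injected under the skin of C57BL/6 mice. The untreated group was given PBS (n = 3 tumors). The treated group was given GB2 (n = 3 tumors), a prodrug in which a disulfide bond links the STING agonist MSA-2 to artesunate, described as a TREM2 inhibitor. Both groups carry the same tumor line, and no gene was altered. The mice of the study were female and 6 weeks old when purchased. A GB2 dose of 10 mg/kg is given for the MC38 model, and the sequenced tumors have no dose of their own. The labels name no animal for each library, so the p-values measure the spread between these tumors.

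TGF-beta is secreted as a latent complex. The ligand is held by its own propeptide, which is tied to the extracellular matrix by the latent TGF-beta binding proteins or to the cell surface by other carriers, and it must be released before it can bind. The released ligand brings together a type II receptor (Tgfbr2) and a type I receptor (Tgfbr1), which phosphorylate SMAD2 and SMAD3. In tumors TGF-beta is known for activating fibroblasts and restraining T cells. Activin A, a dimer of the Inhba product, signals through its own receptors to the same SMADs, whereas gremlin 1 binds and blocks bone morphogenetic proteins.

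Library totals ranged from 64764405 to 83690056 estimated counts, about 4 of which stand for 1 read pair, and the GB2 libraries were the larger ones. PBS tumor 1 stood apart from the other tumors on the first principal component, which held 34.0% of the variance. Bulk tissue was measured, so fewer cells of a type and less RNA per cell cannot be told apart. The epithelial markers expected of a colon carcinoma were low, with 8 markers summing to between 6.80 and 8.18 CPM (counts relative to the TMM-scaled library size) in PBS tumors and between 8.56 and 13.8 CPM in GB2 tumors. Krt8 had 0 counts in GB2 tumor 1, and Krt19, Krt20 and Cldn7 were each at 0 in at least 2 tumors.

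Across the 10 genes, no difference between GB2 and PBS tumors passed the limits used in the study (FDR below 0.05, fold change of 2 or more). Below, log2FC is the log2 fold change of GB2 over PBS tumors in the edgeR fit, given with its standard error (SE), and FDR is the Benjamini-Hochberg adjusted p of that fit over all genes. All 10 genes passed the filter on low counts and were tested. Of these, 0 were called in edgeR, against 0% of all 19602 genes tested. The lowest FDR of any gene was 0.166, and the unadjusted p was under 0.05 for 1360 genes. DESeq2 also called 0 of the 10, with adjusted p values from 0.195 to 0.933, while it called 352 genes higher in GB2 tumors (1.8% of those tested). In the edgeR fit 7 of the 10 genes had a higher estimate in GB2 tumors and 3 a lower one, with a median log2FC of 0.57, compared with a median of -0.02 over all genes tested. Without Grem1, which met the count filter in every GB2 tumor but in 1 PBS tumor, 6 were higher and 3 lower, with a median of 0.37. On looser limits (unadjusted p under 0.05, fold change of 2 or more), 1 of the 10, Grem1, was higher in GB2 tumors, as were 3.74% of all genes. Grem1 was tested only through the group where it is high, and its place in this count and in that of separated groups supports nothing. Lower on the same limits were 0 of the 10 and 0.918% of all genes. Both counts depended on single tumors. Grem1 missed these limits without PBS tumor 2, PBS tumor 3 or GB2 tumor 1, while Tgfb1, Inhba and, in the lower direction, Tgfb2 each passed them when certain single tumors were left out. In DESeq2, Ltbp2 passed them too (log2 fold change 1.37, unadjusted DESeq2 p 0.0391), which makes 2 of the 10, Grem1 included. On the same limits 797 of the 19602 genes were higher in GB2 tumors in DESeq2. In 3 of the 10 (Tgfbr3, Ltbp2 and Grem1) the GB2 tumors all exceeded the PBS tumors, which was the case for 8.61% of all genes. The reverse split was seen in 0 of the 10 and in 6.68% of all genes. With 3 tumors per group, the exact two-sided permutation test of a single gene cannot give a p below 0.1.

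**Figure D1:**
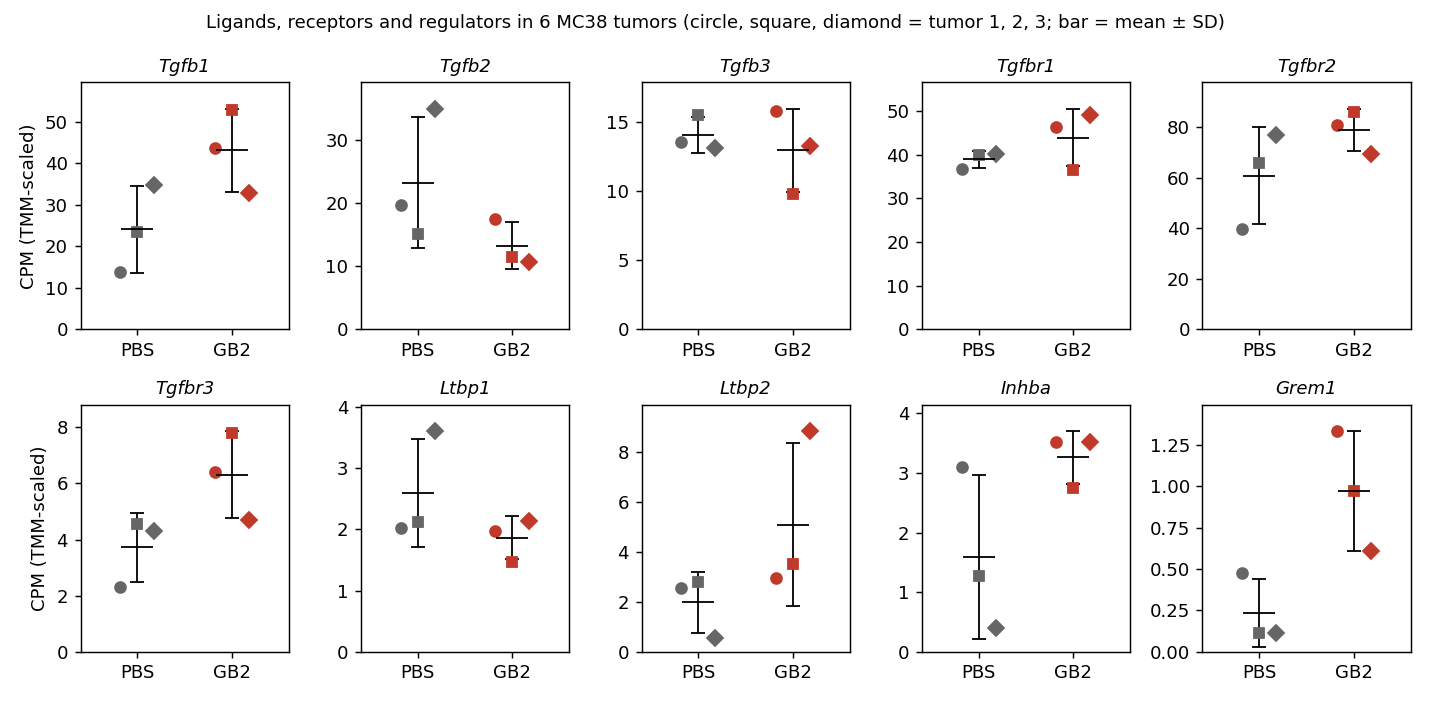
CPM of each of the 10 genes in every tumor, on linear axes from 0, with the mean and SD of each group of 3 tumors. The groups are apart for Tgfbr3, Ltbp2 and Grem1 and overlap for the other 7 genes.

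The 3 ligand genes did not share a direction. Tgfb1 (ENSMUSG00000002603), which encodes the main TGF-beta of immune and stromal cells, lies on chromosome 7 from 25386427 to 25404502 (positions as deposited). It measured 13.9, 23.5 and 34.9 CPM in PBS tumors 1, 2 and 3, and 43.6, 52.9 and 32.95 CPM in GB2 tumors 1, 2 and 3. GB2 tumors 1 and 2 exceeded all PBS tumors, while GB2 tumor 3 lay just below PBS tumor 3. The means were 24.1 ± 10.5 CPM (SD, n = 3) and 43.2 ± 9.98 CPM (SD, n = 3), a ratio of 1.79. The log2FC was 0.84 (SE 0.35, FDR 0.701). The groups separated without PBS tumor 3 or without GB2 tumor 3.

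Tgfb2 (ENSMUSG00000039239), on chromosome 1 from 186354989 to 186438186, encodes the TGF-beta that depends on the co-receptor betaglycan for efficient receptor binding. It had the opposite sign. Its values were 19.6, 15.1 and 34.9 CPM in the PBS tumors and 17.5, 11.5 and 10.6 CPM in the GB2 tumors. The 2 lowest values belonged to GB2 tumors 2 and 3, whereas GB2 tumor 1 lay between the PBS tumors. The log2FC was -0.81 (SE 0.36, FDR 0.737). PBS tumor 3 carried much of this difference, and without it the log2FC was -0.39.

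Tgfb3 (ENSMUSG00000021253), on chromosome 12 from 86103519 to 86125815, encodes the third TGF-beta, known for its role in palate fusion. It measured 13.6, 15.5 and 13.1 CPM in PBS tumors and 15.8, 9.82 and 13.3 CPM in GB2 tumors, so the groups overlapped fully. The log2FC was -0.12 (SE 0.24, FDR 0.909), and it changed sign to 0.050 without GB2 tumor 2.

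To compare the ligands with each other, FPKM values were used, which are divided by transcript length. Tgfb1 made up 27.2%, 39.4% and 41.1% of the summed FPKM of the 3 ligands in PBS tumors, and 52.9%, 68.2% and 53.2% in GB2 tumors. Every GB2 tumor was above every PBS tumor in this share, with means of 35.9% ± 7.60 (SD, n = 3) and 58.1% ± 8.76 (SD, n = 3). The share of Tgfb2 was 33.3%, 21.9% and 35.8% in PBS tumors and 18.4%, 12.9% and 14.9% in GB2 tumors, and here every GB2 tumor was below every PBS tumor. Exact permutation of the tumor labels (two-sided) gave p = 0.1 for both, the smallest value possible, and 0.15 after adjustment over the 3 ligands. The shares are parts of the same sum, so a higher share of Tgfb1 lowers the others and the results are not independent. In CPM the groups overlapped for both genes. The share of Tgfb3 averaged 33.8% in PBS tumors and 26.5% in GB2 tumors, with overlapping groups (exact permutation p = 0.3). The summed FPKM of the ligands was 12.2 ± 3.88 (SD, n = 3) in PBS tumors and 14.4 ± 2.04 (SD, n = 3) in GB2 tumors, a difference smaller than the spread between PBS tumors. The FPKM ratio of Tgfb1 to Tgfb2 ran from 0.816 to 1.80 in PBS tumors and from 2.87 to 5.295 in GB2 tumors.

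**Figure D2:**
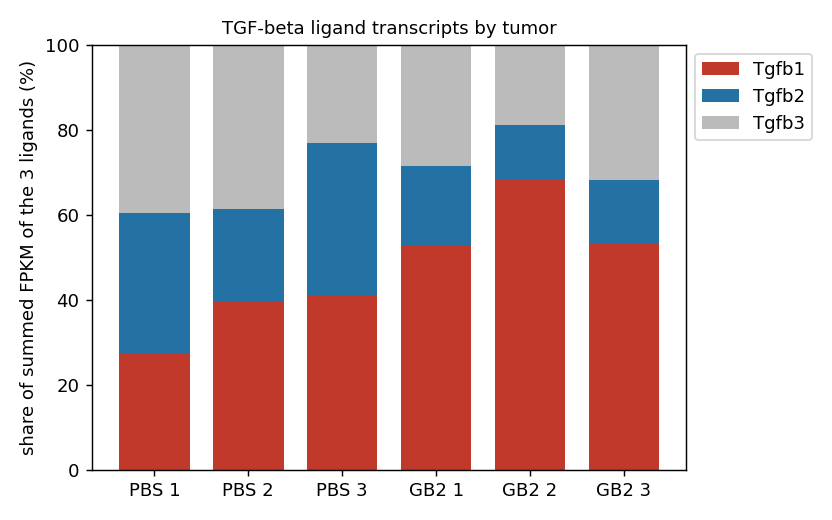
Share of each ligand gene in the summed FPKM of Tgfb1, Tgfb2 and Tgfb3, in percent, 1 bar per tumor. The Tgfb1 share is at most 41.1% in the PBS tumors and at least 52.9% in the GB2 tumors.

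The regions just upstream of both ligand genes whose shares did not overlap between the groups, and of Tgfbr2, which followed Tgfb1 across tumors, are shown for their base composition and short motifs. RefSeq promoter windows on GRCm38.p6 were available for 8 of the 10 genes, and only the 250 bases before the start site are given, on the strand of the gene. Capitals mark the GC box GGGCGG, the CCAAT box CCAAT, the TATA box TATAAA and the SMAD element CAGAC, each searched on both strands. The windows are chr7:25686752-25687001 (plus strand) for Tgfb1, chr1:186705990-186706239 (minus strand) for Tgfb2 and chr9:116175364-116175613 (minus strand) for Tgfbr2.
Tgfb1: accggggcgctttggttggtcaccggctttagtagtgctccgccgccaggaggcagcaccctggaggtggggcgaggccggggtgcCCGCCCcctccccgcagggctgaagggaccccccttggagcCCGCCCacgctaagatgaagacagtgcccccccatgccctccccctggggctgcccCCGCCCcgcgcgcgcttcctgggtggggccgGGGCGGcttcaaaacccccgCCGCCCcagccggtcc
Tgfb2: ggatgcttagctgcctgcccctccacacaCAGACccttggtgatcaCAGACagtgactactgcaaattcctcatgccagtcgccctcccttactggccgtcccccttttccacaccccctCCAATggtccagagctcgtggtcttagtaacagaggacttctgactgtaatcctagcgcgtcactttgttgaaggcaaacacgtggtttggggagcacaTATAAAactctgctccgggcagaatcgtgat
Tgfbr2: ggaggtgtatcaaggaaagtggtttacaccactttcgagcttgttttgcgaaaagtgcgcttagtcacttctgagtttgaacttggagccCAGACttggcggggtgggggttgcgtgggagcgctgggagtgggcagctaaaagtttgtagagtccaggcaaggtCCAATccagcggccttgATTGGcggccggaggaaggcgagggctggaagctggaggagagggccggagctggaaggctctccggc

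The Tgfb1 window had a GC content of 75.2% and 5 GC box matches, and it held no match to the TATA or CCAAT box. The Tgfb2 window, of which 167 bases lie in an exon of the noncoding gene Gm29491, had a GC content of 53.6%, 1 CCAAT match, 2 SMAD element matches and 1 TATA box match that begins 31 bases before the start site, while the Tgfbr2 window had 2 CCAAT matches and 1 SMAD element match. The 8 genes have 10 windows, since Tgfbr1 and Ltbp1 have 2 each. For Tgfbr2, Grem1 and both Ltbp1 windows, the bases just after the start site were not found in an annotated transcript of the gene. The start sites of these windows rest on RefSeq alone. All 250 bases of the Ltbp2 window lie in annotated exons, of D030025P21Rik and Ltbp2. A SMAD element match was found in 7 of the 10 windows, compared with 42.2% of 32851 windows of the same length. GC box matches were found in 4 (32.7% of all windows), CCAAT matches in 5 (33.9%) and TATA matches in 2 (12.4%). The AP-1 site, searched as TGACTCA and TGAGTCA, was found in 0 of the 10 and in 4.46% of all windows. These matches are descriptions of letters only.

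Among the receptors, the type I and type II genes differed little between the groups and the co-receptor gene more. Tgfbr1 (ENSMUSG00000007613, chromosome 4 from 47353222 to 47414931), the type I receptor kinase, measured 36.7, 40.02 and 40.1 CPM in PBS tumors and 46.3, 36.4 and 49.0 CPM in GB2 tumors. GB2 tumor 2 was the lowest of all 6, and the log2FC was 0.17 (SE 0.18, FDR 0.832). Tgfbr2 (ENSMUSG00000032440, chromosome 9 from 115913361 to 116004428), the type II receptor that binds the ligand first, had 39.8, 65.6 and 77.1 CPM in PBS tumors and 81.0, 86.0 and 69.5 CPM in GB2 tumors. PBS tumor 1 was far below the rest, and the log2FC of 0.37 (SE 0.26, FDR 0.779) was 0.16 without that tumor.

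Tgfbr3 (ENSMUSG00000029287, chromosome 5 from 107254436 to 107437495) encodes betaglycan, the co-receptor that presents ligands to the signaling receptors and also binds inhibin. Its values were 2.30, 4.54 and 4.31 CPM in PBS tumors and 6.41, 7.81 and 4.71 CPM in GB2 tumors. Every GB2 tumor was above every PBS tumor, although GB2 tumor 3 exceeded PBS tumor 2 only slightly. The means of 3.72 ± 1.23 CPM (SD, n = 3) and 6.31 ± 1.56 CPM (SD, n = 3) correspond to a log2FC of 0.76 (SE 0.35, FDR 0.752). Per length, Tgfbr2 had the highest mean level of the 10 genes over the 6 tumors (8.22 FPKM), followed by Tgfb1 (6.44 FPKM), Tgfbr1 (6.08 FPKM), Tgfb3 (3.82 FPKM), Tgfb2 (2.99 FPKM) and Tgfbr3 (0.737 FPKM). The ranges over tumors of Tgfbr2, Tgfb1 and Tgfbr1 overlap in FPKM, as do those of Tgfb1, Tgfb2 and Tgfb3. The order within each of these sets was not resolved. In PBS tumors the mean of Tgfb1 (4.52 FPKM) was below that of Tgfbr1 (5.55 FPKM). In GB2 tumors it was above (8.36 against 6.60 FPKM). The summed FPKM of the 3 receptor genes ran from 9.27 to 15.8 in PBS tumors and from 16.5 to 17.8 in GB2 tumors (exact two-sided permutation p = 0.1). The share of each receptor gene in that sum overlapped between the groups.

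Tgfb1, Tgfbr2 and Tgfbr3 varied together over the 6 tumors. The Pearson r of log2 CPM was 0.96 between Tgfb1 and Tgfbr2, 0.95 between Tgfb1 and Tgfbr3 and 0.94 between Tgfbr2 and Tgfbr3. All 3 were lowest in PBS tumor 1 and highest in GB2 tumor 2. Without PBS tumor 1 and GB2 tumor 2, which lie farthest from the median of Tgfb1, r was 0.93 for Tgfb1 with Tgfbr2, 0.69 for Tgfb1 with Tgfbr3 and 0.61 for Tgfbr2 with Tgfbr3. The points share the difference between treatment groups. PBS tumor 1 was also the smallest library, with the lowest TMM factor (0.914) and the lowest mean of 8 pericyte and smooth muscle markers. The part of these in the relation was not tested.

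**Figure D3:**
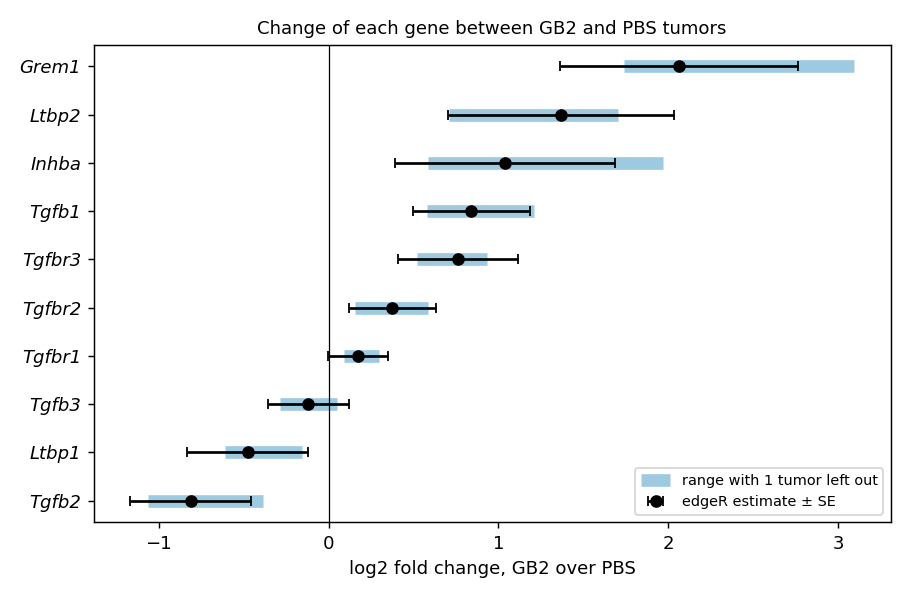
Log2 fold change of each gene, GB2 over PBS tumors, from edgeR with its standard error (points and black bars), and the range of the estimate when 1 tumor is left out (blue bands). The estimates run from -0.81 for Tgfb2 to 2.07 for Grem1, and the Tgfb3 band crosses 0.

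The latent TGF-beta binding protein genes differed from each other. Ltbp2 (ENSMUSG00000002020, chromosome 12 from 84829986 to 84923306) encodes a matrix protein of the elastic fibers that, unlike its relatives, does not bind latent TGF-beta. It had 2.57, 2.78 and 0.566 CPM in PBS tumors and 2.94, 3.50 and 8.83 CPM in GB2 tumors. The groups did not overlap, but PBS tumor 2 and GB2 tumor 1 were close, and the difference rested largely on GB2 tumor 3 and PBS tumor 3. The log2FC of 1.37 (SE 0.67, FDR 0.757) was 0.71 without GB2 tumor 3. Ltbp1 (ENSMUSG00000001870, chromosome 17 from 75312563 to 75699507), which anchors latent TGF-beta in the matrix, had 2.03, 2.13 and 3.61 CPM in PBS tumors and 1.98, 1.47 and 2.14 CPM in GB2 tumors. PBS tumor 3 was the highest and GB2 tumor 2 the lowest, with the other 4 tumors between 1.98 and 2.14 CPM. Its log2FC was -0.48 (SE 0.36, FDR 0.792) and -0.15 without PBS tumor 3. Both were low per length, at 0.197 FPKM for Ltbp1 and 0.416 FPKM for Ltbp2 over the 6 tumors. Another carrier gene, Ltbp3, stood at 12.3 FPKM in PBS tumors and 13.9 FPKM in GB2 tumors.

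Inhba (ENSMUSG00000041324, chromosome 13 from 16186436 to 16206206) measured 3.09, 1.28 and 0.396 CPM in PBS tumors and 3.51, 2.75 and 3.52 CPM in GB2 tumors. The GB2 tumors were tightly grouped, whereas the PBS tumors spread widely, and PBS tumor 1 exceeded GB2 tumor 2. The lowest value, in PBS tumor 3, rests on 7 read pairs. The log2FC was 1.04 (SE 0.65, FDR 0.764). It depended on single PBS tumors. Omitting PBS tumor 1 gave 1.97 and omitting PBS tumor 3 gave 0.59.

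Grem1 (ENSMUSG00000074934, chromosome 2 from 113576509 to 113588991) had the largest fold change of the 10 and the lowest mean FPKM in PBS tumors (0.050), while in GB2 tumors its mean (0.229 FPKM) was above that of Ltbp1 (0.169 FPKM). It was counted 28, 8 and 8 times in PBS tumors but 112, 81 and 52 times in GB2 tumors, or 0.473, 0.114 and 0.113 CPM against 1.33, 0.974 and 0.612 CPM. Every GB2 tumor was above every PBS tumor. The PBS counts stand for about 11 read pairs in all and 2 in each of tumors 2 and 3, so Grem1 passed the filter in only 1 PBS tumor and owed its place among the tested genes to the GB2 tumors. The log2FC was 2.07 (SE 0.70, FDR 0.573), given as a description, and leaving out single tumors moved it between 1.74 and 3.10. The Grem1 window on GRCm38.p6, chr2:113758649-113758898 on the minus strand, is shown because this gene had the largest fold change. It holds 3 GC box matches, 1 CCAAT match and 1 SMAD element match, marked in capitals as above.
Grem1: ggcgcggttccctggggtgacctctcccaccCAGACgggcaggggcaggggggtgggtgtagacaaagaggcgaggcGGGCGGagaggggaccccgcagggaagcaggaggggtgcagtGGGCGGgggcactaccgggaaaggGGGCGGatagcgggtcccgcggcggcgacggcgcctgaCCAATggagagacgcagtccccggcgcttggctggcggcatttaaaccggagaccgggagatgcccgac

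Single tumors stood apart for several of these genes. PBS tumor 3 had the highest Tgfb2 and Ltbp1 of the 6 tumors and the lowest Ltbp2 and Inhba. Its Grem1 count was tied for the lowest. The same tumor had the lowest summed level of macrophage markers (32.3 CPM). Its mean log2 CPM was also the lowest for the fibroblast, endothelial, neutrophil, T cell, adipocyte, keratinocyte and proliferation lists. It was not the lowest for the pericyte, skeletal muscle and epithelial lists. GB2 tumor 3 had the highest Ltbp2 and Tgfbr1, and the highest macrophage sum (209 CPM). Whether these contents account for the differences was not tested.

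**Figure D4:**
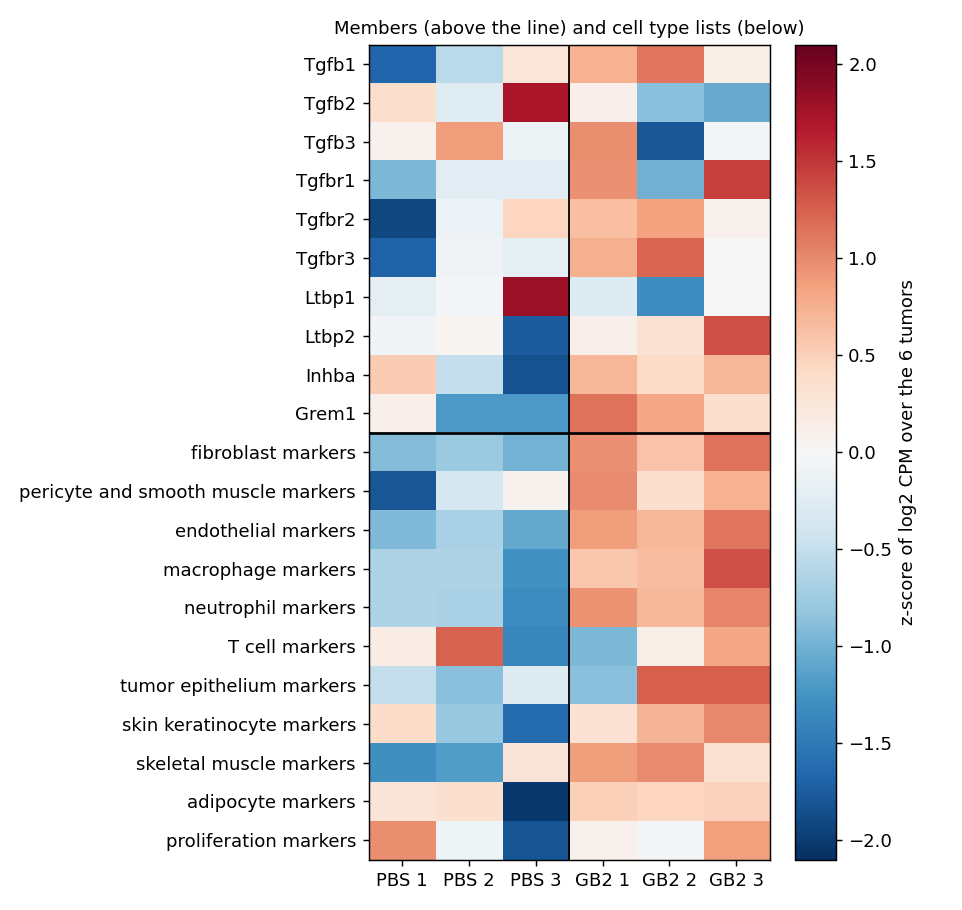
Log2 CPM of the 10 genes, and mean log2 CPM of each cell type list, as z-scores over the 6 tumors (columns). The fibroblast, pericyte, endothelial, macrophage, neutrophil, skeletal muscle and adipocyte lists are higher in every GB2 tumor than in every PBS tumor, a split that is not seen for most of the 10 genes.

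Markers of several host cell types had higher values in GB2 tumors. Of 10 fibroblast markers, 10 had every GB2 tumor above every PBS tumor (8.61% of all genes), and their summed level was 72.9 to 102 CPM in PBS tumors and 188 to 248 CPM in GB2 tumors. Of 8 endothelial markers 7 did so (60.3 to 77.9 CPM against 124 to 139 CPM), as did 8 of 8 macrophage markers (32.3 to 51.5 CPM against 114 to 209 CPM). None of the markers of these 3 lists was at 0 in any tumor, and edgeR called 0 of them. DESeq2 called 7 fibroblast, 4 endothelial and 6 macrophage markers higher in GB2 tumors (1.8% of all genes). When the mean of the fibroblast list was subtracted from each gene within a tumor, Tgfb2, Tgfb3, Tgfbr1, Tgfbr2 and Ltbp1 were lower in every GB2 tumor than in every PBS tumor. On that scale 74.9% of all tested genes behaved likewise, so this does not set these 5 genes apart. Grem1, Ltbp2, Inhba, Tgfb1 and Tgfbr3 overlapped between the groups on the same scale. Of 6 T cell markers, 0 had groups that did not overlap, and their sum ran from 0.368 to 5.29 CPM in PBS tumors and from 0.643 to 3.26 CPM in GB2 tumors, with Cd3e and Cd3d at 0 in PBS tumor 3. The part of host cell content in the levels of the 10 genes was not tested.

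The remainder of the pathway was described through lists chosen by name, again with 0 genes called by edgeR in any of them. Of 15 tested carriers and activators of latent TGF-beta, 14 had higher estimates in GB2 tumors, and the median log2FC was 0.66. In 5 of them every GB2 tumor was above every PBS tumor, against 8.61% of all genes. Itgb6 is in both counts but passed the filter in 0 PBS tumors and 3 GB2 tumors, so the filter fixed its direction and it supports neither count. Fbn1, the fibrillin that holds the large latent complex in the matrix, was at 9.49, 11.9 and 9.83 CPM in PBS tumors and 27.3, 23.7 and 36.4 CPM in GB2 tumors (log2FC 1.49, FDR 0.186, and an adjusted p of 2.72e-06 in DESeq2). Fbn2 had a log2FC of 1.54. Thbs1, whose product thrombospondin 1 can release TGF-beta from its latent form, measured 30.8 ± 8.92 CPM (SD, n = 3) against 54.6 ± 12.5 CPM (SD, n = 3). Lrrc32, which encodes the surface carrier GARP, had a log2FC of 1.01, while Nrros, the carrier of macrophages, had one of 0.36. Itgb6, part of an integrin that activates latent TGF-beta, had 0 counts in each PBS tumor and 11, 15 and 30 counts in GB2 tumors. No fold is given for it, since GB2 tumor 1 also lies under a floor of 3 read pairs (12 counts) per library. With Itgb6 set to the ratio of its GB2 mean to that floor, 1.22, in place of its fitted value, the list median was 0.40.

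Of 14 tested extracellular antagonists, 12 had higher estimates in GB2 tumors, with a median log2FC of 0.66, and in 5 every GB2 tumor was above every PBS tumor (8.61% of all genes). Bmper, among the 5, passed the filter in 2 PBS tumors and 3 GB2 tumors, and was also tested through the GB2 tumors. Dcn, which encodes the TGF-beta-binding proteoglycan decorin and is made by fibroblasts, was at 11.4 ± 2.198 CPM (SD, n = 3) in PBS tumors and 33.5 ± 5.27 CPM (SD, n = 3) in GB2 tumors. Fstl1 (log2FC 0.74), Nbl1 (1.09) and Bmper (1.64) followed by p. The activin antagonist gene Fst had a log2FC of 0.72 from a low level, and its groups overlapped. The FPKM ratio of Inhba to Fst ran from 1.499 to 4.39 in PBS tumors and from 2.99 to 3.48 in GB2 tumors.

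Of 19 tested family ligands, 10 had higher and 9 lower estimates, with a median log2FC of 0.05. In 6 of them, Gdf1 included, the filter was met in every tumor of 1 group only, and without these 7 were higher and 6 lower. Inhbb, the subunit gene of activin B, measured 5.01, 4.61 and 4.39 CPM in PBS tumors and 8.16, 10.1 and 9.11 CPM in GB2 tumors. The groups were well apart for Inhbb, with a log2FC of 0.97 (SE 0.23, FDR 0.278). In DESeq2 the adjusted p of Inhbb was 0.000859, and 0.0115 on counts divided by 4. Its DESeq2 log2 fold change of 0.96 was under the fold limit of 2, so it was not called. Bmp1, a procollagen proteinase despite its name, had a log2FC of 0.67. Gdf1 had 398, 20 and 15 counts in PBS tumors and 14, 2 and 2 in GB2 tumors, with PBS tumor 1 far above the rest, and it shares a transcript with Cers1, so its counts are uncertain. Inhbe, a liver-enriched activin subunit gene, had 4, 32 and 84 counts in PBS tumors and 0, 12 and 0 in GB2 tumors, with overlapping groups.

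The receptors and intracellular genes showed small differences. Of 11 tested family receptors, 6 had higher and 5 lower estimates (median log2FC 0.04), and 0 had every GB2 tumor above every PBS tumor (8.61% of all genes). The activin receptor genes Acvr1b and Acvr2a had log2FCs of 0.21 and -0.11, and Eng, the endothelial co-receptor endoglin, had one of 0.26. Acvrl1, an endothelial type I receptor, had one of -0.33, and Amhr2 one of -0.57. Of 15 SMADs and SMAD repressors, 10 had higher and 5 lower estimates (median 0.04), and 1 of them, Smad5, had every GB2 tumor above every PBS tumor (log2FC 0.23), a share near the 8.61% of all genes. Smad2, a direct substrate of the TGF-beta and activin receptors, had a log2FC of 0.23, and the ubiquitin ligase genes Smurf1 and Smurf2 had 0.38 and 0.28.

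Of 20 tested genes known as targets of TGF-beta and activin, 14 had higher and 6 lower estimates, with a median log2FC of 0.56. In 11 of them every GB2 tumor was above every PBS tumor (8.61% of all genes), and 0 showed the reverse (6.68%). Among the 11 is Cdkn2b, named after its values were seen, which passed the filter in 1 PBS tumor and 3 GB2 tumors and so was tested only through the group where it is high. The looser limits were passed by 8, all higher in GB2 tumors (3.74% of all genes), and DESeq2 called 7 higher (1.8%). In the 6 genes with lower estimates the groups overlapped. Col3a1 (136 ± 31.7 against 422 ± 60.8 CPM, SD, n = 3), Postn (24.5 ± 4.52 against 98.6 ± 41.0 CPM), Tgfbi (6.59 ± 2.44 against 29.4 ± 11.7 CPM) and Col1a2 (log2FC 1.44) had the smallest p. These 4 encode matrix proteins that fibroblasts make, and the fibroblast markers were higher in the same tumors. Chosen after their values were seen, Smad7, Skil and Ccn2, which respond early to TGF-beta, had log2FCs of -0.15, -0.05 and -0.05 with overlapping groups. The part of fibroblast content or of TGF-beta signaling in the levels of any of these genes was not tested.

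**Figure D5:**
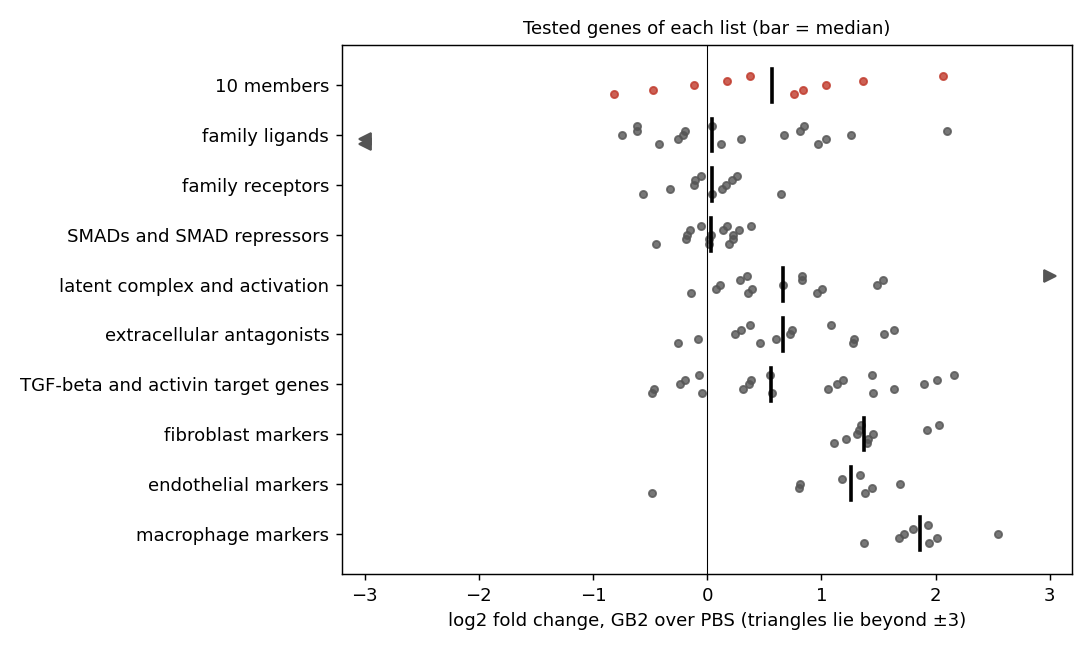
Log2 fold change (GB2 over PBS tumors, edgeR) of the 10 genes and of the tested genes of each list, with the median as a bar and genes beyond 3 in either direction as triangles. The medians are 0.57 for the 10 genes, 0.04 for family receptors, 0.56 for target genes and 1.37 for fibroblast markers.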

How the data were processed

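RNA of 6 MC38 tumors (3 PBS, 3 GB2) was sequenced in pairs of reads, from stranded libraries of polyadenylated RNA. The authors deposited whole-number estimated counts that are not scaled between tumors, and FPKM values divided by transcript length and library total. Low counts pile up at multiples of 4. The submitters' processing notes name cutadapt 1.9, HISAT2 2.2.1, StringTie 2.1.6, DESeq2, edgeR and the build mm10. In 9 of the 10 members, however, the start in the deposited table lies over 1000 bases from that in GRCm38, so gene positions are those of the table. Promoter windows come from RefSeq on GRCm38.p6.

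The analysis ran in R 4.3.3. Counts went through edgeR 4.0.16: filterByExpr (minimum count 10), TMM scaling, glmQLFit and glmQLFTest, with Benjamini-Hochberg adjustment over 19602 genes. CPM use the TMM-scaled library size, log2 CPM a prior count of 2, and standard errors come from the test statistic. DESeq2 1.42.0 and limma 3.58.1 served as alternatives, with other filters and scalings, counts divided by 4, a replicate block and each tumor left out in turn. FPKM served to compare genes. The code was tested on simulated data. The common dispersion corresponds to a biological variation of 40.5% within groups. Depth was 64764405 to 83690056 counts per tumor.

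The members and lists were chosen with earlier results of these data known. Named genes are the 10 members, the 4 genes of each pathway list with the smallest p, and genes whose products bind a member's product. A few others are said in the text to have been named after their values were seen. No batch is given by the labels.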

Additional observations from a re-analysis of the deposited data

How the results depend on the processing

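The 10 genes were recomputed under 15 alternatives. In 149 of 150 values the direction and the side of the adjusted threshold were kept, though edgeR and limma called 0 genes throughout, so in them the side could not change. The exception was Tgfb3, whose log2 fold change ran from -0.28 (without GB2 tumor 1) to 0.050 (without GB2 tumor 2). Grem1, Ltbp2, Tgfbr3 and Ltbp1 moved most with limma on log2(FPKM + 1), to 0.23, 0.38, 0.34 and -0.07. The mean FPKM of these genes lies below that pseudocount of 1. Inhba, also below it, moved to 0.30 with that setting but further without PBS tumor 1, to 1.97. Tgfb1 and Tgfb2 moved most without PBS tumor 3, to 1.21 and -0.39. The number of called genes over the whole table was 0 in edgeR and in limma, but 385 in DESeq2 and 252 in DESeq2 on counts divided by 4, and 0 of the 10 members was among them. On the looser limits of the report (unadjusted p, fold change of 2 or more), 733 genes were higher and 180 lower. With limma on log2(FPKM + 1) these were 95 and 36. The lower genes numbered 338 with no filter and 117 with a minimum count of 40. Leaving out single tumors, the higher genes ran from 503 to 950 and the lower genes from 123 to 548, with 548 without PBS tumor 3 and 310 without PBS tumor 2. The called genes stayed at 0. Among the members, Grem1 missed these limits without PBS tumor 2 (unadjusted edgeR p 0.0608), PBS tumor 3 (0.0507) or GB2 tumor 1 (0.0685). Tgfb1 passed them without PBS tumor 3 (log2 fold change 1.21) or GB2 tumor 3 (1.002), Inhba without PBS tumor 1 (1.97), and Tgfb2, lower, without PBS tumor 2 (-1.04) or GB2 tumor 1 (-1.07). The number of members with every GB2 tumor above every PBS tumor, an alternative chosen after seeing the data, ran from 3 to 5. It was 5 without PBS tumor 3, without GB2 tumor 2 or without GB2 tumor 3. The share of all genes with that split was larger too, at 11.6% to 15.9%. The reverse split, seen in 0 members with all tumors, was seen in Tgfb2 without PBS tumor 2 or GB2 tumor 1, and in Ltbp1 without GB2 tumor 3. In these settings it was seen in 11.4%, 10.5% and 12.6% of all genes, so 1 member of 10 is near that share. The Tgfb1 share of the ligands differed by between 17.2 and 24.9 percentage points, and that of Tgfb2 by between -19.1 and -12.2.

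The labels do not say whether tumors with the same number are paired, and they were treated as unpaired. Their deviations from the group means correlated at 0.03, 0.15 and -0.24 across genes. With 3 tumors per group, these values cannot settle whether a pairing exists. With the number as a replicate block, 636 genes were higher and 128 lower at the unadjusted limits, and 0 were called. Leaving out genes that met the filter in every tumor of 1 group only, an alternative chosen after seeing the data, the median log2 fold change was 0.37 for the members, 0.53 for the latent complex and the antagonist lists and 0.55 for the targets. Counts were low for Grem1, with 11 read pairs in the PBS tumors, and in PBS tumor 3 for Inhba (7 read pairs) and Ltbp2 (10 read pairs).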

Other observations

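The genes whose log2 CPM followed each member most closely were found by Pearson r over the 6 tumors, which share the difference between the groups. Those of Tgfb1 were Nup155, Ncoa3 and Camsap2 (r from 0.995 to 0.996). Those of Tgfbr2 were Akap10, Prelp and Ppm1f (0.998 to 0.999), with Prelp encoding a matrix proteoglycan. Ltbp2 was closest to Ptprc, which encodes the pan-leukocyte marker CD45 (r = 0.996), and to Gvin1 and Exo1. Ptprc measured 5.06, 4.85 and 1.54 CPM in PBS tumors and 5.72, 7.08 and 13.4 CPM in GB2 tumors, the same order of groups as Ltbp2. Inhba was closest to As3mt, Galnt16 and Tceal1, and Grem1 to Rhbdl2, Setbp1 and Olr1. Setbp1 and Olr1 had counts as low as those of Grem1. Tgfb2 was closest to Dnajb9 (0.990). Among the members, Ltbp2 and Inhba had r = 0.86, Inhba and Grem1 0.84, Tgfb2 and Ltbp1 0.82, and Tgfb2 and Ltbp2 -0.94.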
